A study of Homo sapiens with 6 samples.

Results

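Tight junctions seal the space between neighbouring epithelial cells and set which ions and water pass between them. Their strands are built from claudins and occludin, junctional adhesion molecules lie beside the strands, and the zonula occludens (ZO) scaffolds tie the membrane proteins to actin. Claudins divide broadly into sealing members, which tighten the barrier, and pore-forming members, which let ions or water through. The genes described here are the 9 with the symbols CLDN1, CLDN2, CLDN4, CLDN7, CLDN12, OCLN, TJP1, TJP3 and F11R, taken by symbol from a table of 30493 genes. All 9 had enough counts to be tested.

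Poly(A) RNA was sequenced from A549, an established human lung adenocarcinoma cell line. The labels name 3 libraries as STAU1 knockdown and 3 as carrying a control plasmid. STAU1 encodes Staufen1, which binds double-stranded RNA and takes part in transporting and degrading mRNAs. The titles of the knockdown libraries carry the prefix si, so the groups may differ in reagent as well as in STAU1. Effects of the reagent and of STAU1 loss cannot be told apart here. The labels give neither a reagent sequence, a time after knockdown, nor the number of cultures behind each group. The p-values therefore reflect only how much these libraries spread, which may be technical. In such bulk RNA, fewer cells that express a gene and less RNA per cell cannot be told apart.

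Libraries held 30354219 to 35431441 counts in the knockdown group and 31458569 to 32832268 in the control group. STAU1 itself stood at 3.39, 3.35 and 3.22 FPKM (a level scaled to gene length and library depth) in the knockdown libraries, against 24.03, 24.7 and 23.5 FPKM in the controls (log2 fold change -2.97, SE 0.04). The cell line's epithelial markers were all present, with 241002 to 281075 summed counts over 6 genes in knockdown libraries and 314510 to 329831 in controls. Among them KRT7, KRT8 and KRT18 fell (log2 fold changes of -0.60, -0.39 and -0.45), while EPCAM and CDH1 rose (0.22 and 0.50). Across all genes tested, 44.2% were called at an adjusted p under 0.05 (edgeR's quasi-likelihood test, Benjamini-Hochberg adjustment over all genes tested), 22.2% as higher and 22.0% as lower in knockdown libraries. Every gene said below to have risen or fallen passed that threshold, and adjusted p-values given as edgeR's come from the same test.

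Of the 9 tight junction genes 3 rose (CLDN2, F11R and TJP1), 2 fell (CLDN4 and CLDN12) and 4 were not called, so the share called lay near the 44.2% of all genes. Their median log2 fold change was 0.08, against -0.000355 over all genes tested. The groups did not overlap in scaled counts for 6 of the 9 genes, against 51.4% of all genes. With total-count scaling and with either FPKM scale, 5 of the 9 were called higher, and with either FPKM scale 1 was called lower. The changes ran between CLDN4 at 0.551-fold and CLDN2 at 1.70-fold of control.

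**Figure D1:**
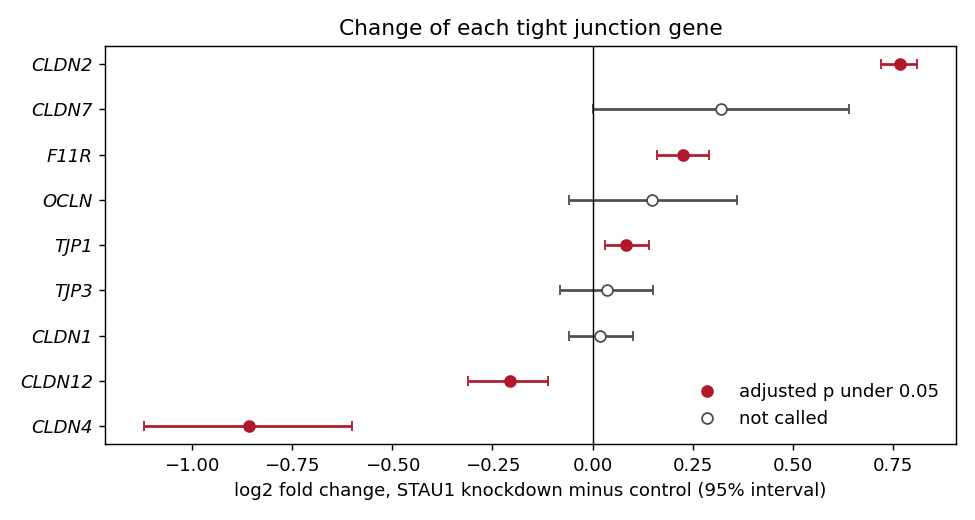
Log2 fold change of each gene, STAU1 knockdown minus control, with its 95% interval from edgeR's quasi-likelihood fit over 3 libraries a group (filled points, adjusted p under 0.05). CLDN2 stands at 0.77 and CLDN4 at -0.86, and the other 7 genes lie between -0.21 and 0.32.

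Levels differed over a wide range, and CLDN2 led in both groups. On the deposited FPKM scale, which allows genes to be compared per length, the knockdown means ran from 80.4 for CLDN2 through 16.9 for F11R, 11.5 for CLDN1, 7.78 for TJP1, 4.80 for TJP3, 4.23 for CLDN12, 0.970 for CLDN7 and 0.543 for CLDN4 to 0.457 for OCLN. In that group the ranges of neighbours in this order did not overlap. The control means ran from 43.8 for CLDN2 through 13.4 for F11R, 10.5 for CLDN1, 6.80 for TJP1, 4.51 for CLDN12, 4.34 for TJP3, 0.913 for CLDN4 and 0.717 for CLDN7 to 0.383 for OCLN. There the ranges of CLDN12 and TJP3 overlapped. CLDN7 and CLDN4, and likewise TJP3 and CLDN12, thus stood in the opposite order in the knockdown and control groups. The order of genes depends on the lengths used for FPKM, whose annotation was not stated.

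**Figure D2:**
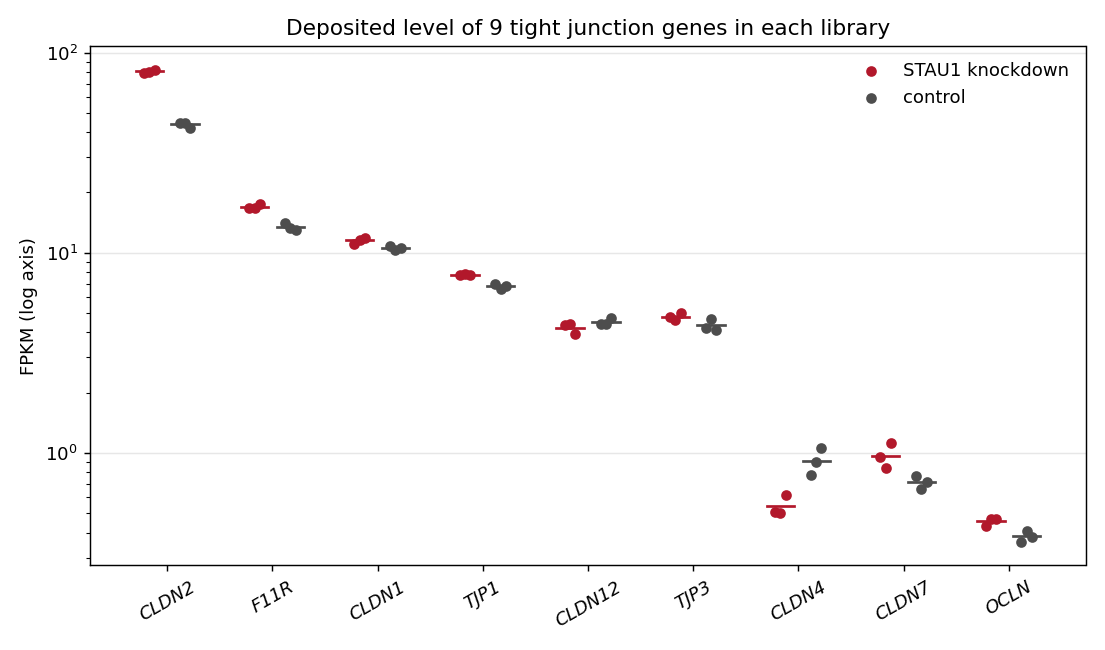
Deposited FPKM (log axis) of the 9 genes in each library, ordered by control mean, with points for the 3 knockdown and 3 control libraries and lines for their means. CLDN2 lies highest in both groups, at 79.1 to 82.2 FPKM in knockdown libraries and 42.1 to 44.6 in controls, while CLDN4, CLDN7 and OCLN lie near or below 1 FPKM.

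CLDN2 encodes a pore-forming claudin that passes cations and water and is typical of leaky epithelia. It spans positions 106900164 to 106930861 of chromosome X on the plus strand (ENSG00000165376.12, GRCh38 coordinates of GENCODE 29). The knockdown libraries held 79.1, 79.9 and 82.2 FPKM and the control libraries 44.6, 44.6 and 42.1 FPKM. Every knockdown library lay far above every control, and the libraries of a group differed little. In the count model CLDN2 rose 1.70-fold (log2 fold change 0.77, SE 0.02, 95% interval 0.72 to 0.81), and edgeR gave an adjusted p of 4.2e-30. By fold change it ranked 438 of 17089 tested genes from the top, and by mean count level 481. The call held with every alternative tried, with log2 fold changes between 0.74 and 0.88. RIPPLY1 on the opposite strand overlaps part of the exonic bases of CLDN2 and held 22 counts over the 6 libraries.

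CLDN4 encodes a claudin that lowers paracellular cation passage, and with CLDN3 it is a known receptor of the Clostridium perfringens enterotoxin. The gene lies on chromosome 7 at positions 73799542 to 73832693, plus strand (ENSG00000189143.10). CLDN4 had 86, 86 and 117 counts in the knockdown libraries, against 140, 160 and 193 counts in the controls. That is 0.51, 0.50 and 0.62 FPKM in knockdown libraries and 0.78, 0.90 and 1.06 FPKM in controls. All knockdown libraries lay below all controls, although each group spread more than for the abundant claudins. CLDN4 fell to 2.89 ± 0.299 CPM in knockdown libraries, against 5.27 ± 0.774 CPM in controls (counts scaled by TMM to library size, SD, n = 3 each). The log2 fold change was -0.86 (SE 0.13, 95% interval -1.12 to -0.60), and edgeR gave an adjusted p of 2.2e-07. The call held in all alternatives, with values from -0.96 to -0.74 when a library was left out, but -0.31 on the log2(FPKM + 1) scale, where the added 1 exceeds the gene's own level in most libraries.

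Of the 11 markers of lung alveolar and airway epithelium analysed, of 13 listed, 4 fell (SFTPA1, SFTPA2, SFTPB and SLC34A2), 0 rose, 3 were not called and 4 had too few counts to be tested. Over all genes tested 22.2% were called higher and 22.0% lower. Together the 11 summed to 236 to 244 counts in knockdown libraries and 685 to 720 counts in controls. SFTPA1 had 0 counts in each knockdown library and 141 to 212 in controls, SFTPB had 0 and 50 to 103, and SFTPA2 and SLC34A2 had 0 or 1 in knockdown libraries. SFTPD, NAPSA and AGER, which were not called, had log2 fold changes of 0.17, -0.01 and 0.06, SFTPC summed to 15 counts over the knockdown libraries and 14 over the controls, and the alveolar claudin gene CLDN18 had at most 1 count in any library. Their part in the fall of CLDN4 was not tested. The summed marker CPM that follow were scaled to each library's total count without TMM, unlike the CPM of single genes. TMM factors were 1.021 to 1.031 in knockdown libraries and 0.9708 to 0.9767 in controls, so leaving them out raises knockdown sums relative to controls. Summed fibroblast markers stood at 15.4 to 17.4 CPM in knockdown libraries and 9.88 to 10.5 CPM in controls. Immune markers stood at 16.5 to 18.7 CPM in knockdown libraries and 12.7 to 14.0 CPM in controls. Summed endothelial markers overlapped between the groups, at 5.28 to 6.42 CPM in knockdown libraries and 5.57 to 6.07 CPM in controls. Within that sum single genes moved in opposite directions. CDH5 rose (log2 fold change 1.03), ESAM fell (-0.35) and PECAM1 was not called (0.27). Markers of other epithelial lines summed to 42.7 to 46.2 CPM in knockdown libraries and 34.1 to 36.0 CPM in controls.

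The RefSeq sequences (GRCh38.p14) upstream of the transcription starts of CLDN2 and CLDN4 are shown because these genes had the largest rise and the largest fall of the 9. Each line gives the 250 bases before the first listed start, 5′ to 3′ on the plus strand, chrX:106899914-106900163 for CLDN2 and chr7:73830746-73830995 for CLDN4. Capitals mark matches to TGANTCA, a loose form of the AP-1 motif that allows any base in the middle.
CLDN2: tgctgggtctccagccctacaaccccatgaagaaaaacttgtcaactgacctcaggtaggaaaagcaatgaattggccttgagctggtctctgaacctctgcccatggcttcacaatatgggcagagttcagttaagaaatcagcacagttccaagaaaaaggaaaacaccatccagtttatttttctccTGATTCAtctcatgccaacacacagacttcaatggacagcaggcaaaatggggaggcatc
CLDN4: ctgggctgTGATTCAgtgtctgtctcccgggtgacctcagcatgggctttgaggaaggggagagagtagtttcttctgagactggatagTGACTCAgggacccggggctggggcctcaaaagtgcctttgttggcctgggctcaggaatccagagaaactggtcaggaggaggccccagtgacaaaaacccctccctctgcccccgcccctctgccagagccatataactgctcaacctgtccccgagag
The CLDN2 match, TGATTCA, begins 60 bases before the start. The CLDN4 matches, TGATTCA and TGACTCA, begin 242 and 161 bases before its start. TGANTCA reads the same on both strands and was found in 2 of 15 promoter windows (250 bases before to 50 after a start) of the 8 genes that matched by symbol, and in 7.71% of all 35116 windows. These were the windows of CLDN2 and CLDN4, a gene that rose and a gene that fell. The E-box CAGGTG, searched on both strands and known as the core site of SNAI and ZEB repressors, was in 5 of the 15 windows and in 20.6% of all windows. CLDN7 held 5 copies in its second window, OCLN held 1 and 2 in its windows, TJP1 and TJP3 held 1 each, and CLDN1, CLDN2, CLDN4 and CLDN12 held none in the windows searched. GGGCGG, the GC box, was in 9 of the 15 windows and in 45.0% of all windows, and TATAAA was in 0 and in 11.5%. A match describes the letters of the sequence and not the binding of a factor.

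CLDN1 encodes a sealing claudin needed for the barrier of the skin. The knockdown libraries held 11.1, 11.6 and 11.9 FPKM and the control libraries 10.8, 10.3 and 10.5 FPKM. On the TMM-scaled counts (a scaling that assumes most genes are unchanged) the groups overlapped, at 46.3, 48.2 and 47.9 CPM in knockdown libraries and 48.0, 46.0 and 46.5 CPM in controls. CLDN1 was not called (log2 fold change 0.02, 95% interval -0.06 to 0.10, adjusted p = 0.73 by edgeR). It was called higher with total-count scaling (0.10, adjusted p = 0.035 by edgeR) and with log2(FPKM + 1) and log2(FPKM + 0.1) (0.12 and 0.13, adjusted p of 0.032 and 0.031 by limma), so its call depended on the scaling.

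CLDN7 encodes a claudin found along the basolateral membrane, where it binds EpCAM. It had 85, 76 and 112 counts in knockdown libraries, against 73, 62 and 70 in controls. After scaling these were 2.72, 2.38 and 3.10 CPM in knockdown libraries and 2.35, 2.03 and 2.20 CPM in controls, and the lowest knockdown library lay just above the highest control. CLDN7 was not called (log2 fold change 0.32, SE 0.16, adjusted p = 0.10 by edgeR), and at this depth its 95% interval reached up to 0.64. It was called higher with total-count scaling (0.40, adjusted p = 0.038 by edgeR) and on both FPKM scales (0.20 and 0.38, adjusted p of 0.027 and 0.026 by limma). The same-strand gene AC003688.1 overlaps 10.8% of its exonic bases and held 65 counts over the 6 libraries, and ELP5 on the opposite strand overlaps 1.52% and held 9683. How reads shared with CLDN7 were counted is not stated in the labels.

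CLDN12 encodes a claudin that lacks the usual C-terminal motif for binding the ZO scaffolds. Its knockdown libraries held 33.6, 33.9 and 29.1 CPM and its controls 36.4, 36.3 and 38.5 CPM. Knockdown replicate 3 was the lowest, and all knockdown libraries lay below all controls. CLDN12 fell by 0.21 on the log2 scale (SE 0.05, 95% interval -0.31 to -0.11), and edgeR gave an adjusted p of 4.7e-04. The call was lost on both FPKM scales (-0.08 and -0.09, adjusted p = 0.23 for each by limma), where the groups overlapped at 4.35, 4.42 and 3.91 FPKM in knockdown libraries and 4.43, 4.40 and 4.71 FPKM in controls. GTPBP10, which overlaps 5.15% of its exonic bases on the same strand, held 4560 counts.

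The make-up of the claudin transcripts differed between the groups. Summed over the 17 claudin genes with FPKM values, the level was 104, 104 and 108 FPKM in knockdown libraries and 69.6, 68.7 and 67.1 FPKM in controls. Without CLDN2 the sum was 24.8 ± 0.477 FPKM in knockdown libraries and 24.7 ± 0.505 FPKM in controls (SD, n = 3 each). Over all genes the median log2 fold change was 0.0961 with log2(FPKM + 0.1) and -0.000355 after TMM scaling. How these sums compare between the groups therefore depends on the scaling. The share of CLDN2 in the claudin sum was 76.3%, 76.5% and 76.4% in knockdown libraries and 64.1%, 64.9% and 62.8% in controls. CLDN1 came next with 10.9% ± 0.252 in knockdown libraries and 15.4% ± 0.367 in controls, and CLDN12 had 4.02% ± 0.335 and 6.60% ± 0.367. CLDN4 took 0.516% ± 0.0529 in knockdown libraries and 1.34% ± 0.231 in controls. The ratio of CLDN2 to CLDN1, a pore-forming to a sealing claudin, was 6.98 ± 0.153 in knockdown libraries and 4.15 ± 0.166 in controls on the FPKM scale. With 3 libraries a group, an exact permutation test cannot go below p = 0.10, so these shares are given as a description.

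**Figure D3:**
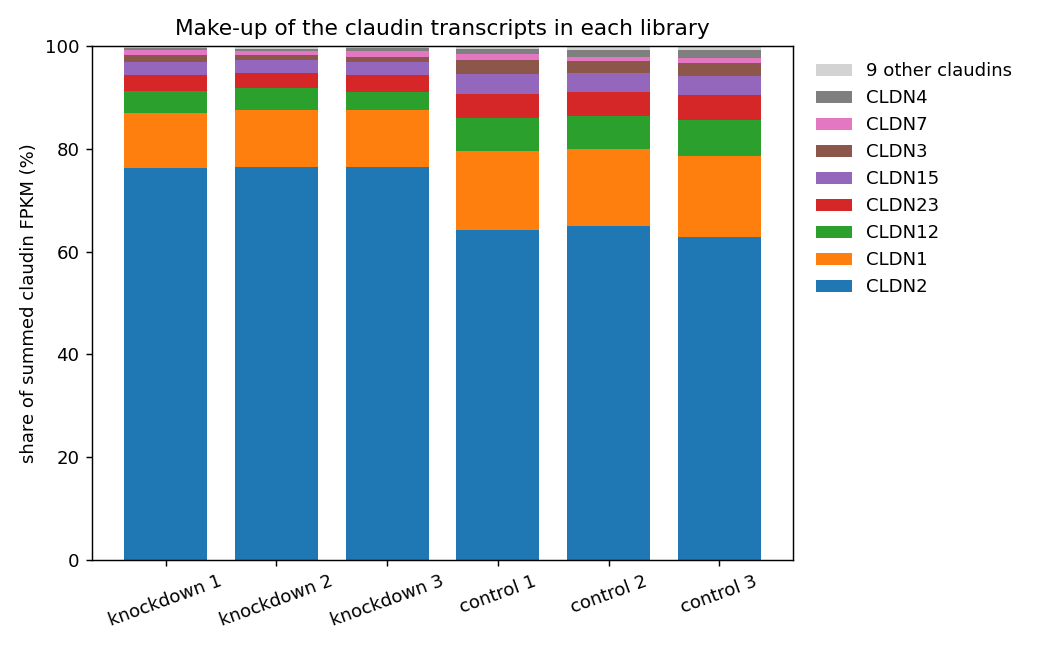
Share of each claudin gene in the summed claudin FPKM (%), for the 3 knockdown libraries on the left and the 3 controls on the right, with the 9 least abundant claudins pooled. CLDN2 takes 76.3% to 76.5% in knockdown libraries and 62.8% to 64.9% in controls.

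Of 21 further claudin and claudin-domain genes listed, 6 had enough counts to be tested, 1 fell, 0 rose and 5 were not called, beside 44.2% called among all genes; their median was -0.08 (log2). At an adjusted p under 0.05, 1 of these genes was called higher with no filter on low counts, on both FPKM scales, without knockdown replicate 3 and without control replicate 2, and 2 were called lower without knockdown replicate 3. CLDN3, the close relative of CLDN4, fell to 1.71 ± 0.271 CPM in knockdown libraries, against 2.65 ± 0.261 CPM in controls (log2 fold change -0.64, SE 0.17, adjusted p = 0.0019 by edgeR). It had 63, 48 and 58 counts in knockdown libraries, against 91, 74 and 83 in controls. CLDN3 lies on the same arm of chromosome 7 as CLDN4, with 29271 bases between the 2 annotated genes. CLDN15, a pore-forming claudin of the intestine, stood at 8.52 and 9.27 CPM in knockdown and control libraries (log2 fold change -0.12, adjusted p = 0.24 by edgeR), and CLDND1, a claudin-domain gene, at 51.6 and 54.5 CPM (-0.08, adjusted p = 0.081 by edgeR). The sign of CLDND1 turned on both FPKM scales (0.03 on each) and it was called lower without knockdown replicate 3 (-0.10, adjusted p = 0.043 by edgeR).

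OCLN encodes occludin, the first strand protein of the tight junction to be described, and had the lowest FPKM of the 9 genes in both groups, though not the lowest count. It had 173, 194 and 213 counts in knockdown libraries, against 153, 173 and 166 in controls. Scaled to depth, these were 5.53, 6.08 and 5.89 CPM in knockdown libraries and 4.93, 5.65 and 5.21 CPM in controls, and the groups overlapped. OCLN was not called (log2 fold change 0.15, SE 0.10, 95% interval -0.06 to 0.36, adjusted p = 0.26 by edgeR), and no alternative called it. Its pseudogene OCLNP1 held 2 counts over the 6 libraries. Near-identical copies may share reads with OCLN, so its level is uncertain.

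F11R encodes the junctional adhesion molecule JAM-A, an immunoglobulin-like protein at the apical end of the lateral membrane. The gene lies on the minus strand of chromosome 1 at positions 160995211 to 161021348 (ENSG00000158769.18). The knockdown libraries held 16.7, 16.7 and 17.5 FPKM and control libraries 14.0, 13.3 and 13.0 FPKM, with no overlap. F11R rose 1.17-fold (log2 fold change 0.23, SE 0.03, 95% interval 0.16 to 0.29), and edgeR gave an adjusted p of 2.4e-08. It was called higher with every alternative, with values between 0.20 and 0.33. The gene AL591806.3, not analysed here, overlaps 36.6% of its exonic bases on the same strand, so its level is uncertain to the extent that reads were shared.

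TJP1 encodes ZO-1, the scaffold that binds claudins, occludin, JAM-A and actin. TJP1 stood at 101, 101 and 97.3 CPM after knockdown, against 96.6, 92.1 and 94.0 CPM in controls, so the lowest knockdown library lay just above the highest control. TJP1 rose by 0.08 on the log2 scale (SE 0.03, 95% interval 0.03 to 0.14), and edgeR gave an adjusted p of 0.016. This small rise was not called by DESeq2 (adjusted p = 0.061), without knockdown replicate 1 (0.08, adjusted p = 0.066 by edgeR) or without control replicate 2 (0.07, adjusted p = 0.11 by edgeR).

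TJP3 encodes ZO-3, a scaffold found mainly in epithelial cells. It stood at 4.80, 4.60 and 5.01 FPKM in knockdown libraries and 4.20, 4.69 and 4.13 FPKM in controls, and control replicate 2 lay within the knockdown range. TJP3 was not called (log2 fold change 0.04, 95% interval -0.08 to 0.15, adjusted p = 0.64 by edgeR). The FPKM ratio of TJP1 to TJP3 was 1.62 ± 0.0745 in knockdown libraries and 1.57 ± 0.142 in controls (SD, n = 3 each).

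Other membrane proteins of the junction moved both ways. Of 12 listed, 8 were tested, 2 rose, 3 fell and 3 were not called, beside 22.2% higher and 22.0% lower among all genes; their median was -0.11 (log2). The lower count was 1 without knockdown replicate 2 or control replicate 1, and 0 without control replicate 2, with DESeq2, with total-count scaling and on both FPKM scales. The higher count was 1 without knockdown replicate 1 and with DESeq2. CXADR, the coxsackievirus and adenovirus receptor, rose to 39.0 ± 2.20 CPM in knockdown libraries, against 29.6 ± 1.54 CPM in controls (log2 fold change 0.40, SE 0.05, adjusted p = 8.4e-10 by edgeR). MARVELD2, which encodes the tricellular junction protein tricellulin, rose by 0.24 (adjusted p = 0.0099 by edgeR, but 0.059 with DESeq2 and 0.068 by edgeR without knockdown replicate 1). LSR, which recruits tricellulin, had -0.11 (adjusted p = 0.014 by edgeR), a call lost with total-count scaling (-0.04), on both FPKM scales (-0.01), with DESeq2, and without knockdown replicate 2, control replicate 1 or control replicate 2.

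Among 16 cytoplasmic scaffolds 15 were tested, 9 rose, 2 fell and 4 were not called, beside 22.2% higher and 22.0% lower among all genes; their median was 0.25 (log2). The lower count was 1 without knockdown replicate 2, control replicate 1 or control replicate 3, with DESeq2, with total-count scaling and on both FPKM scales. AFDN, the actin-binding afadin gene, rose to 39.5 ± 0.548 CPM in knockdown libraries, against 30.8 ± 0.204 CPM in controls (0.36, SE 0.04). MPDZ, a multi-PDZ protein that binds claudins, rose by 0.39 (SE 0.05). AMOTL2, an angiomotin family gene, fell to 23.9 ± 0.0857 CPM in knockdown libraries, against 35.4 ± 0.837 CPM in controls (-0.57, SE 0.05). Among 13 polarity genes 4 rose, 2 fell and 7 were not called, beside 44.2% called among all genes; their median was 0.05 (log2). With total-count scaling 7 polarity genes were higher and 1 lower, on both FPKM scales 0 were lower, and without knockdown replicate 2, control replicate 1 or control replicate 3 the lower count was 1. PARD3, the PAR complex scaffold that is recruited by JAM-A, rose to 114 ± 0.453 CPM in knockdown libraries, against 85.8 ± 1.06 CPM in controls (0.42, SE 0.03). Its paralog PARD3B rose by 0.71 (SE 0.10) and the basolateral polarity gene LLGL2 by 0.21 (SE 0.03).

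Of 17 genes for junctional actin and myosin 9 rose, 1 fell and 7 were not called, beside the 22.2% and 22.0% of all genes called higher and lower; their median was 0.08 (log2). MYLK, the myosin light chain kinase gene, rose to 38.9 ± 1.28 CPM in knockdown libraries, against 25.0 ± 0.461 CPM in controls (0.64, SE 0.05). EZR, the ezrin gene, rose by 0.22 (SE 0.02), and the myosin light chain gene MYL12A fell by 0.19 (SE 0.02), a call lost on both FPKM scales (-0.08 on each). Of 16 transcription factors known to act on epithelial junction genes 14 were tested, 6 rose, 1 fell and 7 were not called, again beside 44.2% called among all genes; their median was 0.20 (log2). The lower count was 0 without control replicate 3 and on both FPKM scales. HNF4A, a nuclear receptor of liver and gut epithelium, rose to 60.1 ± 1.26 CPM in knockdown libraries, against 38.4 ± 1.36 CPM in controls (0.65, SE 0.04). TFCP2L1 rose by 0.59 (SE 0.09) and the epithelial ETS factor gene ELF3 by 0.16 (SE 0.02). Among the SNAI and ZEB repressor genes SNAI1 rose by 0.68 (SE 0.12, adjusted p = 5.9e-06 by edgeR). SNAI2, ZEB1 and ZEB2 were not called (0.23, -0.03 and 0.36). The rises in this list also included OVOL2 (0.81, SE 0.22) and KLF5 (0.10, SE 0.03), and the gene that fell was GRHL3 (-0.42, SE 0.13). The action of these factors on the 9 genes was not tested.

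The neighbouring junction types gave the following counts. Of 12 adherens junction genes 7 rose, 1 fell and 4 were not called; their median was 0.18 (log2). The lower count was 0 with total-count scaling and on both FPKM scales and 2 without knockdown replicate 3. CDH1, the E-cadherin gene, rose to 122 ± 3.28 CPM in knockdown libraries, against 86.2 ± 2.06 CPM in controls (0.50, SE 0.03). CDH2, the N-cadherin gene, rose by 0.65 (SE 0.05) and the alpha-catenin gene CTNNA1 by 0.26 (SE 0.02). Of 11 desmosome genes 9 were tested, 8 rose, 0 fell and 1 was not called; their median was 0.24 (log2). DSG2, a desmosomal cadherin gene, rose by 0.24 (SE 0.03), DSC3 by 0.88 (SE 0.12) and the envoplakin gene EVPL by 0.31 (SE 0.05). Over all genes 22.2% were called higher, and the difference between these lists and the 9 tight junction genes was not tested.

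**Figure D4:**
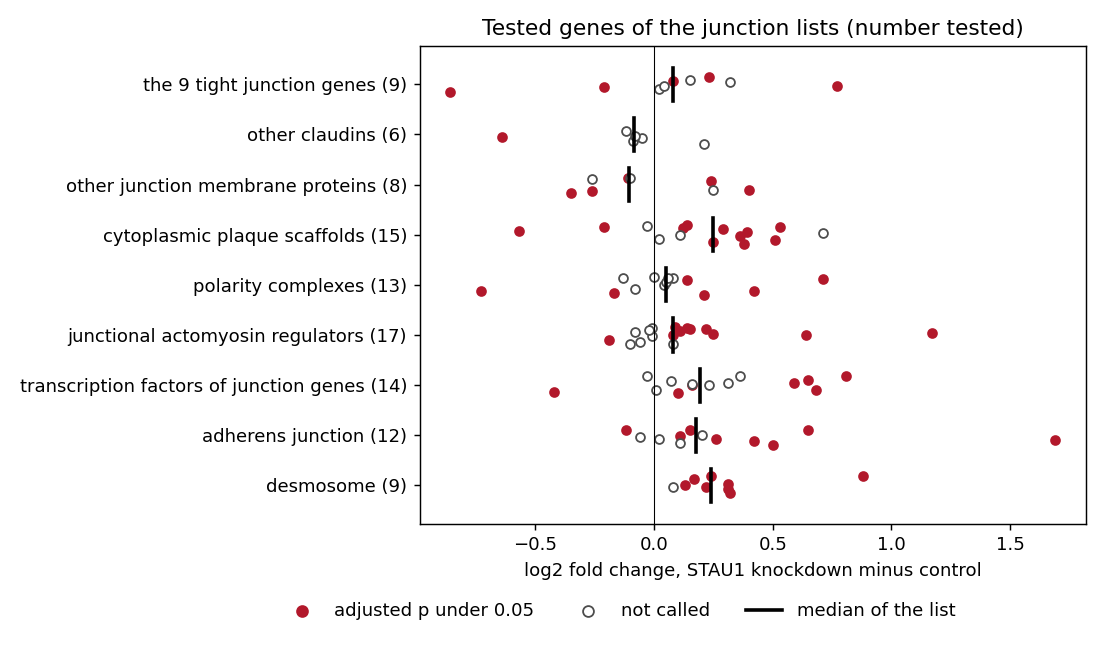
Log2 fold change, STAU1 knockdown minus control, of each tested gene of the junction lists, with filled points for an adjusted p under 0.05 in edgeR's quasi-likelihood test and bars at the list medians. The 9 tight junction genes spread from -0.86 to 0.77 around a median of 0.08, and the desmosome genes lie between 0.08 and 0.88.

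The genes whose pattern over the 6 libraries lay closest to a member were sought among 10101 genes of at least moderate level, by the root-mean-square difference in log2 CPM relative to the control mean. Closest to CLDN2 were PCNX3 (a difference of 0.0271), CBLB (0.0276) and CCDC80 (0.0310), with log2 fold changes of 0.76, 0.79 and 0.77. Closest to CLDN4 were FER1L4 (0.0954), ANGPTL4 (0.108) and SUSD2 (0.116), with log2 fold changes of -0.78, -0.77 and -0.81. These are descriptions over 6 libraries in 2 groups.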

How the data were processed

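Read counts for each gene, and FPKM values rounded to 2 decimals, are used as the authors deposited them. The submitters' processing notes name HISAT2, DESeq2 and the GRCh38 build, with no role for each; how reads were counted, on which annotation and with which strand setting was not stated. Each column carries the title of 1 library. The 9 genes and the other lists were chosen with earlier results of these data known.

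Of 30493 genes, 17089 passed filterByExpr (minimum count 10). Library sizes were summed over these genes, and counts were scaled by TMM and fitted in edgeR 4.0.16 (glmQLFit, robust, then glmQLFTest; R 4.3.3), and p-values were adjusted by Benjamini and Hochberg's method across the 17089 genes, with calls made under 0.05. Each SE is |log2 fold change| divided by the root of the F statistic. The fit was tested on simulated data, with 50 genes changed at each of the log2 sizes 0.25, 0.5, 1 and 2. It called 42% of changes of 0.25, 98% of changes of 2 and 0.077% of unchanged genes. Few genes were changed there, so scaling under changes as broad as those called here was not tested. Alternatives used limma 3.58.1, DESeq2 1.42.0, other scalings and filters, FPKM with a pseudocount of 1 or 0.1, a replicate block, and each library left out. The deposited FPKM divisor of knockdown replicate 3 was 1.05 times that of control replicate 1, and its count total 1.11 times. Ignoring versions, 96.9% of identifiers matched GENCODE 29, the source of coordinates and overlaps. Replicates differed by more than sampling noise (chi-square per degree of freedom 1.78 to 2.88).

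The genes named are the 9 members, STAU1, the 3 genes with the smallest adjusted p in each further list, and the 3 genes closest in pattern to CLDN2 and to CLDN4. Markers and overlapping genes are named besides. So are the SNAI and ZEB repressor genes, OVOL2, KLF5 and GRHL3, which were chosen after their values were seen.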

Additional observations from a re-analysis of the deposited data

How the results depend on the processing

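Over all genes 3801 were called higher and 3759 lower (50.3% of calls higher), and the lower count was 2407 with total-count scaling (69.5% of calls higher), 1552 with log2(FPKM + 1) (77.3%) and 1554 with log2(FPKM + 0.1) (77.2%). Under these same 3 settings 5 of the 9 tight junction genes were called higher, against 3, and with both FPKM scales 1 was called lower, against 2. When each library was left out in turn the counts ran from 3386 to 3570 higher and from 3370 to 3631 lower over all genes, and from 2 to 3 higher with 2 lower among the 9. CLDN2, CLDN4 and F11R kept their direction and call in all 16 alternatives each. TJP3, which was not called, ranged from -0.0020 (without control replicate 3) to 0.10 when a library was left out, and CLDND1 turned to 0.03 on both FPKM scales. Of the genes in the 8 further lists 56 were called, between 48 and 61 under the alternatives, and 51 to 56 when a library was left out. The cause of these shifts was not tested. Deviations of same-numbered libraries from their group means correlated at 0.0403, 0.0185 and 0.0958 over 10107 genes, and not every library correlated best with its own number, so the numbers were not taken as pairs. With the replicate block 3821 genes were higher and 3844 lower, and the 9 genes again gave 3 higher and 2 lower. Counts of 62 to 213 per library limit what can be seen for CLDN4, CLDN7 and OCLN.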
